A study of Mus musculus with 8 samples.

Results

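The genes described here encode peroxins, the proteins that build peroxisomes, together with *Pex5l*, a relative of the import receptor *Pex5*. The names taken were *Pex2*, *Pex3*, *Pex5*, *Pex5l*, *Pex6*, *Pex7*, *Pex11a*, *Pex13* and *Pex14*, and every probe set that the platform annotation gives to one of these was kept. They are 9 of the 18193 genes named singly on the array, measured by 21 of its 45101 probe sets (4 for *Pex5l*, 5 for *Pex6*, 2 each for *Pex2*, *Pex3*, *Pex5*, *Pex11a* and *Pex13*, and 1 each for *Pex7* and *Pex14*). They were put together with results of these arrays known, and *Pex5l* was chosen by its measured log2 difference between day 14 and control. For that difference the values of all 9 genes are therefore a description, and no test of them is given.

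The samples were retinas of adult C57BL/6J mice, aged 80 to 120 days, raised in dim cyclic light of 5 lux, on for 12 hours a day. Hyperoxia groups had spent 3, 7 or 14 days in 75% oxygen, and control mice (day 0) none. Each time had 2 arrays, 8 in all, taken at the time and replicate number on the label. Per the study's methods, RNA of several mice of both sexes was pooled for a time. Whether the 2 arrays of a time hold separate pools is not given in the sources used here, so the p-values measure the spread between arrays, which may be technical. In whole retina, fewer cells of a type and less RNA per cell cannot be told apart.

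Peroxisomes are single-membrane organelles in which very long chain and branched fatty acids are shortened, ether lipids begin their synthesis and hydrogen peroxide is made and broken down. Their matrix proteins are folded in the cytosol, bound by the receptors *Pex5* or *Pex7*, docked at *Pex13* and *Pex14*, and released inside. The RING finger protein *Pex2* and the ATPase *Pex6* act in the removal of the receptor from the membrane for another round. *Pex3* inserts membrane proteins, and *Pex11a* elongates the membrane before division. Inherited loss of peroxins in humans causes disorders in which the retina degenerates. *Pex5l* resembles *Pex5*, but its product, also called TRIP8b, is best known in neurons as the auxiliary subunit that sets the transport and gating of HCN channels, which open on hyperpolarization. The study's text lists *Pex5l* probe sets under the symbol PEX2, which RefSeq holds as a synonym of *Pex5l*. Here the names follow the platform annotation.

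All values are log2 expression values in which each probe set was centred on its own median over the 8 arrays. A value of 1 is thus 2-fold that median. Only differences between arrays can be read from them, so genes cannot be ranked by abundance, and whether the markers of the retina were present could not be checked. A difference is given with its standard error (SE) from limma, fitted on all 45037 probe sets that are no control, with n = 2 arrays in each group and Benjamini-Hochberg adjustment of p over all of them. An exact permutation test of 2 arrays against 2 cannot go below p = 0.333.

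The arrays labelled replicate 2 of day 3 and replicate 2 of day 14 stood apart from the other 6. *Gapdh* is measured near both ends of its transcript, and its 3' minus 5' value was 1.19 and 1.43 on these arrays, against -0.32 to 0.12 on the others. The median of the 32 probe sets of gliosis genes was 1.20 and 1.08 there and -0.32 to 0.15 elsewhere, and that of the 24 probe sets of microglia and macrophages was 1.32 and 1.14, against -0.24 to 0.06. The study's quality measures place a raised *Gapdh* ratio on both arrays of day 14 and on neither of day 3, whereas under the deposited labels 1 array of each time had it. These sources conflict over 2 arrays, day 3 replicate 2 and day 14 replicate 1 by label, which bears on every value of these times below. The labels were followed. Bipolar cell genes had medians of -0.42 and -0.63 on the arrays that stood apart, against -0.06 to 0.18 elsewhere. Rod genes had -0.25 and -0.28 there, against -0.23 to 0.09, and cone genes -0.37 and -0.25, against -0.21 to 0.09. Lens genes ranged from -1.98 to 3.41 between arrays and were highest on both day 7 arrays, corneal and other epithelial genes ranged from -1.02 to 1.86, and pigment epithelium genes from -0.54 to 1.15. The part of these in the members' values was not tested.

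Over the array, no probe set passed an adjusted p of 0.05 in any of the 6 comparisons between times by limma (0 of 45037, 0%). For the members, tests are given for the 3 comparisons in which day 14 is not compared. Those of day 3 and day 7 with control share the control arrays with the difference that chose *Pex5l*. Without adjustment, 2 of the 21 member probe sets had p under 0.05 at day 3 against control, where the share over all probe sets was 10.3%. At day 7 against control it was 1 member, against 0.864% of all probe sets. At day 7 against day 3, which shares no array with the comparison by which the genes were chosen, it was 6 members, or 28.6% beside 12.1% of all. The 6 were 3 probe sets of *Pex5l* and 1 of *Pex2*, higher at day 7, and 2 of *Pex6*, lower at day 7. The 2 of *Pex6* correlated at r = 0.95, and that of *Pex2* with *Pex5l* 1446144_at at r = 0.94. The 6 are thus not separate results, and nothing is read from their share.

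By the order of the arrays, 5 member probe sets lay with both day 3 arrays below both control arrays and 5 with both above, or 23.8% each. The shares over all probe sets were 17.8% below and 24.7% above. At day 7, 1 lay below and 5 above (4.76% and 23.8%, beside 12.3% of all probe sets in either direction). At day 14, 4 lay below and 5 above (19% and 23.8%), and the shares over all, from which nothing is read here, were 18.3% and 27.7%. The median difference of the members from control was 0.07 (day 3), 0.02 (day 7) and 0.08 (day 14), and over all probe sets it was 0.04, 0.00 and 0.05. The members therefore held no common direction, and the counts at day 3 were near those of the array as a whole.

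**Figure D1:**
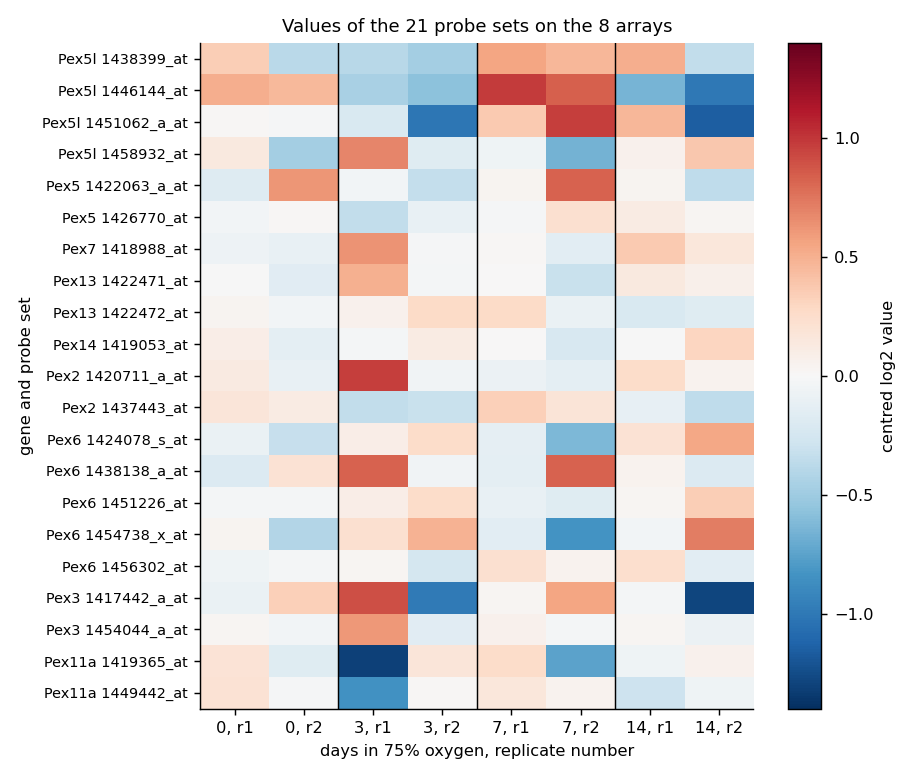
Centred log2 values (colour) of the 21 probe sets (rows, by role) on the 8 arrays (columns, by days in 75% oxygen and replicate number, r1 and r2). *Pex5l* 1446144_at is positive on the control and day 7 arrays and negative on the day 3 and day 14 arrays, and *Pex3* 1417442_a_at and *Pex5l* 1451062_a_at are lowest on both replicate 2 arrays of day 3 and day 14.

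*Pex5l* had the widest change with time of any member on probe set 1446144_at, which stands first for the gene as its most variable. It had 0.51 and 0.45 on the control arrays, -0.45 and -0.57 at 3 days, 0.98 and 0.84 at 7 days, and -0.65 and -1.01 at 14 days. As a description, the 4 times did not overlap, and in order from the top they were day 7, control, day 3 and day 14. The gaps between neighbouring means were 0.43, 0.99 and 0.32, beside a pooled SD of 0.14 between arrays of a time, so that each gap was wider than that SD. Day 3 and day 14 were the closest pair, at -0.32 (SE 0.16).

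Day 3 differed from control by -0.99 (SE 0.16), a 1.99-fold lower value, with an adjusted p of 0.471 in limma. Day 7 differed from control by 0.43 (SE 0.16, adjusted p = 1), 1.35-fold higher. At day 14 the difference from control was -1.31 (SE 0.16), 2.48-fold lower, the 1 member difference of 2-fold or more from control at any time. Probe sets 2-fold lower made up 1.84% of all at day 14, 1.1% at day 3 and 0.0844% at day 7, and those 2-fold higher 0.271%, 0.429% and 0.209%. With 1 array of day 14 left out in turn, the difference was -1.13 without replicate 2 and -1.49 without replicate 1. The gene was chosen by this difference, so the like sign is a description and no check.

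Between the hyperoxia groups, day 7 lay 1.43 above day 3 (SE 0.16), 2.69-fold, with the third smallest p of 45037 in that comparison (rank 3, adjusted p = 0.347 in limma). Without both arrays that stood apart, the difference was 1.37 (adjusted p = 0.124 in limma). Day 7 minus day 3 was thus larger than the spread between the arrays of a time, and it did not pass after adjustment over the array. Leaving out both arrays of conflicting record instead, a choice made after seeing the data, dropped the same day 3 array. The difference of day 7 from day 3 was then 1.37 by construction, which is no second check. Day 14 lay 1.74 below day 7 (SE 0.16), 3.34-fold, which is a description, since the day 14 arrays served to choose the gene. Genes of other tissues and cells differed between day 7 and day 3 as well. Lens genes had a median difference of 5.23 over 12 probe sets, 11 of them 2-fold higher at day 7. Over all 45037 probe sets, 891 were 2-fold higher at day 7 than at day 3 and 478 were 2-fold lower. Pigment epithelium genes had a median difference of 1.14 over 14 probe sets, 8 of them 2-fold higher, and bipolar cell genes 0.60 over 19, with 3 of them 2-fold higher. Rod genes had 0.36 over 16 probe sets, with 1 of them 2-fold higher, and cone genes 0.15 over 12, with none. Gliosis, microglia and ganglion cell genes were lower at day 7, with medians of -0.61, -0.85 and -0.32. The pigment epithelium medians were -0.18 and 1.15 on the day 7 arrays and -0.43 and -0.54 on the day 3 arrays. Those of lens genes were 2.26 and 3.41 at day 7 and -1.98 and -0.57 at day 3. The part of any of these genes in the difference of *Pex5l* was not tested.

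The other 3 probe sets of *Pex5l* varied differently. Probe set 1451062_a_at had 0.01 and -0.01 in control, -0.22 and -1.01 at 3 days, 0.37 and 0.96 at 7 days, and 0.47 and -1.15 at 14 days. Its day 3 arrays lay below and its day 7 arrays above both control arrays, with differences of -0.61 and 0.66 (SE 0.53 for both), and its day 14 arrays fell on either side of control. The lowest 2 values were those of the arrays that stood apart.

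Probe set 1438399_at had 0.35 and -0.38 in control, -0.39 and -0.48 at 3 days, 0.55 and 0.46 at 7 days, and 0.50 and -0.35 at 14 days. It too lay below control on both day 3 arrays and above on both day 7 arrays, with day 7 over day 3 by 0.94 (SE 0.33, adjusted p = 0.364). Probe set 1458932_at had 0.14 and -0.48 in control, 0.68 and -0.17 at 3 days, -0.06 and -0.67 at 7 days, and 0.06 and 0.38 at 14 days, and overlapped control at all 3 times. Day 7 was therefore the highest time on 3 of the 4 probe sets and the lowest on the other, and day 14 was the lowest time on 1446144_at alone. Over the 8 arrays the first 3 correlated with each other at Pearson's r of 0.56 to 0.80, and 1458932_at with them at -0.60 to -0.28. These values are descriptions over arrays that share a time in pairs.

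**Figure D2:**
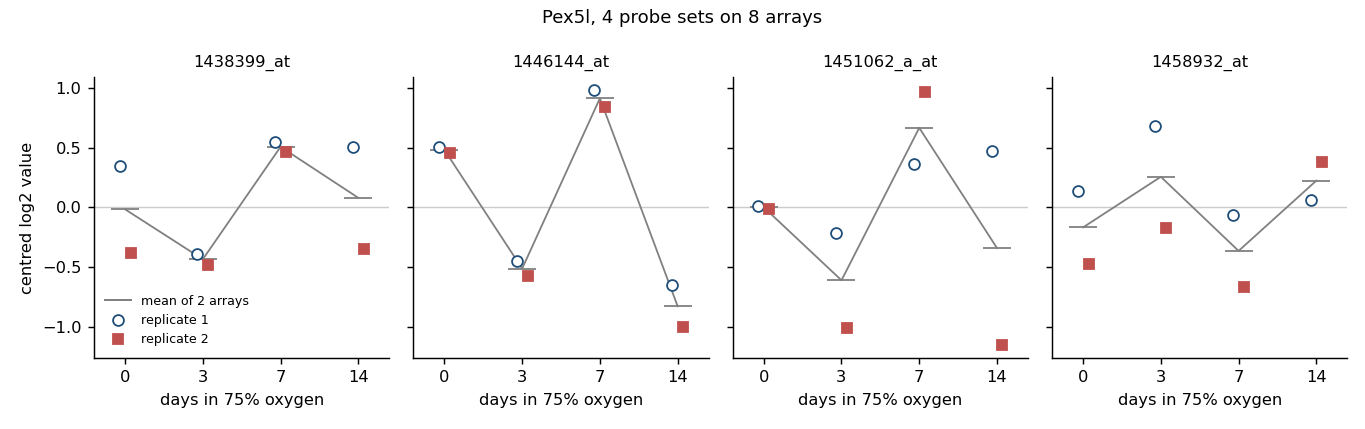
Centred log2 values of the 4 *Pex5l* probe sets (panels) by days in 75% oxygen, with 1 point per array (open circles, replicate 1, and filled squares, replicate 2) and the mean of 2 arrays joined by lines. On 1446144_at the pairs do not overlap and day 14 lies at -0.65 and -1.01, while 1451062_a_at splits at day 14 into 0.47 and -1.15.

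Against the gliosis genes, the 2 most variable *Pex5l* probe sets behaved differently. On 1451062_a_at the arrays with gliosis medians of 1.20 and 1.08 had the values -1.01 and -1.15, and the other 6 lay between -0.22 and 0.96. On 1446144_at those arrays had -0.57 and -1.01, and the remaining array of day 3, with a gliosis median of -0.08, had -0.45, and that of day 14, with 0.15, had -0.65. Both of these gliosis medians were above those of control (-0.32 and -0.19). The part of the gliosis genes in the *Pex5l* values was not tested.

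**Figure D3:**
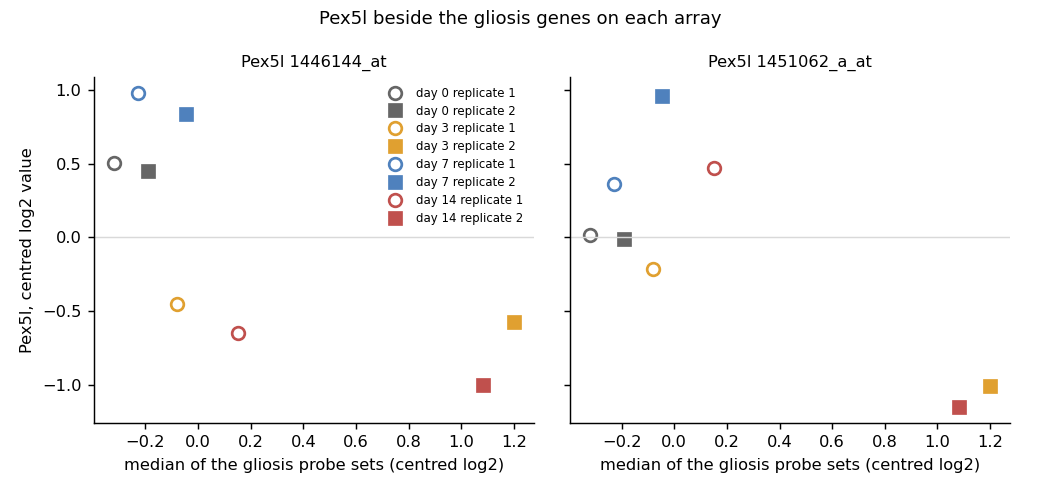
Centred log2 value of *Pex5l* (vertical axis; left panel 1446144_at, right panel 1451062_a_at) against the median centred log2 value of the 32 gliosis probe sets on each array (horizontal axis), coloured by day, with open circles for replicate 1 and filled squares for replicate 2. On the left all 4 arrays of day 3 and day 14 lie between -0.45 and -1.01, and on the right only the 2 arrays with gliosis medians of 1.20 and 1.08 lie below -0.22.

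Among the 11506 probe sets naming 1 other gene and with an SD of at least 0.3, those most like *Pex5l* 1446144_at over the 8 arrays were *Setd2* (r = 0.990), a histone methyltransferase, *Adarb1* (r = 0.984), an RNA editing enzyme, *Nipbl* (r = 0.982), the loader of cohesin, *Msi2* (r = 0.982), an RNA-binding protein, and *Mphosph9* (r = 0.982), a centrosomal protein. They were picked for this likeness and so describe the pattern alone. *Setd2*, for one, had 0.27 and 0.48 in control, -0.27 and -0.39 at 3 days, 0.65 and 0.67 at 7 days, and -0.40 and -0.68 at 14 days. Of the HCN channels, to which the product of *Pex5l* binds, *Hcn2* and *Hcn3* were read. *Hcn2* differed from control by 0.26 at day 3, 0.08 at day 7 and 0.29 at day 14 (SE 0.17, adjusted p = 0.607, 1 and 0.682 in limma). *Hcn3* differed by 0.01, 0.11 and -0.06 (SE 0.14, adjusted p = 0.993, 1 and 0.922), with its highest mean at day 7 and its lowest at day 14.

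*Pex5* binds matrix proteins that end in the common carboxyl-terminal signal. Its more variable probe set, 1422063_a_at, had -0.18 and 0.62 in control, -0.04 and -0.34 at 3 days, 0.04 and 0.83 at 7 days, and 0.04 and -0.36 at 14 days. The control arrays alone spanned most of the range, every time overlapped control, and the lowest 2 values were on the arrays that stood apart. The second, 1426770_at, had -0.04 and 0.01 in control, -0.35 and -0.10 at 3 days, -0.01 and 0.22 at 7 days, and 0.12 and 0.02 at 14 days. Both of its day 3 arrays lay below control, with a difference of -0.21 (SE 0.15, adjusted p = 0.639).

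*Pex7* binds the smaller group of proteins with an amino-terminal signal. It had -0.07 and -0.10 in control, 0.63 and -0.02 at 3 days, 0.02 and -0.15 at 7 days, and 0.36 and 0.16 at 14 days. Both day 3 and both day 14 arrays lay above control, by 0.39 and 0.34 (SE 0.22), with an adjusted p of 0.569 at day 3. The 2 arrays of day 3 lay farther apart than the means of day 3 and control.

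*Pex13* and *Pex14* form the docking site in the membrane, and their differences were small. *Pex13* 1422471_at had -0.01 and -0.16 in control, 0.50 and -0.03 at 3 days, 0.01 and -0.31 at 7 days, and 0.14 and 0.07 at 14 days. *Pex13* 1422472_at had 0.04 and -0.04 in control, 0.06 and 0.27 at 3 days, 0.26 and -0.09 at 7 days, and -0.21 and -0.17 at 14 days. So at day 14 the 2 probe sets of *Pex13* lay on opposite sides of control, at 0.18 (SE 0.21) and -0.19 (SE 0.16). *Pex14* had 0.09 and -0.13 in control, -0.02 and 0.11 at 3 days, 0.00 and -0.23 at 7 days, and 0.00 and 0.30 at 14 days, overlapping control at each time. The widest difference of *Pex14* from control was 0.17 at day 14, as wide as its SE (0.17).

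*Pex2*, whose product is part of the ubiquitin ligase that marks the receptor for export, gave unlike patterns on its 2 probe sets. Probe set 1437443_at had 0.17 and 0.12 in control, -0.34 and -0.31 at 3 days, 0.34 and 0.18 at 7 days, and -0.12 and -0.35 at 14 days. No time overlapped control, with differences of -0.47 at day 3, 0.12 at day 7 and -0.38 at day 14 (SE 0.14 for each; adjusted p = 0.471 at day 3 and 1 at day 7 in limma). Day 7 lay 0.59 above day 3 (SE 0.14, adjusted p = 0.347 in limma). This was the order of times seen on *Pex5l* 1446144_at, except that day 3 and not day 14 was lowest, and the 2 probe sets correlated at r = 0.94 over the 8 arrays, the highest between probe sets of 2 different members.

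The other *Pex2* probe set, 1420711_a_at, had 0.13 and -0.10 in control, 0.97 and -0.05 at 3 days, -0.08 and -0.14 at 7 days, and 0.25 and 0.05 at 14 days. Its day 3 mean rested on replicate 1, and without that array the difference from control was -0.06 in place of 0.45 (SE 0.31). The 2 probe sets correlated at r = -0.52, so the direction of *Pex2* at day 3 depended on which of them was read.

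*Pex6*, the ATPase that helps to pull the receptor out of the membrane, was measured by 5 probe sets, of which 3 varied together. On 1454738_x_at, the most variable, the values were 0.04 and -0.41 in control, 0.23 and 0.49 at 3 days, -0.15 and -0.84 at 7 days, and -0.04 and 0.71 at 14 days. Probe set 1424078_s_at had -0.10 and -0.33 in control, 0.10 and 0.26 at 3 days, -0.13 and -0.63 at 7 days, and 0.20 and 0.54 at 14 days. Probe set 1451226_at had -0.02 and -0.03 in control, 0.09 and 0.26 at 3 days, -0.10 and -0.17 at 7 days, and 0.02 and 0.35 at 14 days.

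All 3 had their highest 2 values on the arrays that stood apart and correlated with each other at r of 0.90 to 0.95. They also lay above control on both day 3 arrays, by 0.54 (SE 0.33), 0.39 (SE 0.22) and 0.20 (SE 0.16), with adjusted p of 0.589, 0.559 and 0.671. Day 7 minus day 3 was -0.85 (SE 0.33), -0.56 (SE 0.22) and -0.31 (SE 0.16), with adjusted p of 0.390, 0.387 and 0.476 in limma. The marks x and s on 2 of these probe sets mean that some of their probes may also match other transcripts.

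The remaining 2 probe sets of *Pex6* followed neither these nor each other (r = 0.17). Probe set 1438138_a_at had -0.19 and 0.20 in control, 0.82 and -0.05 at 3 days, -0.14 and 0.82 at 7 days, and 0.05 and -0.19 at 14 days. Probe set 1456302_at had -0.06 and -0.03 in control, 0.03 and -0.24 at 3 days, 0.22 and 0.05 at 7 days, and 0.24 and -0.14 at 14 days. The first was high on 1 array each of day 3 and day 7, and the second was lowest on the arrays that stood apart, opposite to the 3 above.

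*Pex3*, the membrane anchor on which new peroxisomal membrane proteins are received, split within times. Probe set 1417442_a_at had -0.09 and 0.34 in control, 0.91 and -0.99 at 3 days, 0.03 and 0.55 at 7 days, and -0.03 and -1.28 at 14 days. On the arrays that stood apart it was thus at -0.99 and -1.28, against -0.09 to 0.91 on the other 6, and its day 14 difference from control of -0.77 had an SE of 0.66. Probe set 1454044_a_at had 0.03 and -0.04 in control, 0.61 and -0.16 at 3 days, 0.06 and -0.02 at 7 days, and 0.02 and -0.08 at 14 days. It was lowest on the same arrays, at -0.16 and -0.08, and highest on the other array of day 3.

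*Pex11a*, which also takes part in the multiplication of peroxisomes under fatty acid ligands in rodent liver, was low on 1 array. Probe set 1419365_at had 0.19 and -0.17 in control, -1.31 and 0.17 at 3 days, 0.26 and -0.75 at 7 days, and -0.06 and 0.06 at 14 days. Probe set 1449442_at had 0.20 and -0.02 in control, -0.84 and 0.02 at 3 days, 0.16 and 0.05 at 7 days, and -0.29 and -0.06 at 14 days. The array labelled day 3 replicate 1 held the lowest value of both, and replicate 2 of that time lay within the range of control or near it. The differences at day 3, -0.59 (SE 0.51) and -0.51 (SE 0.28), had adjusted p of 0.703 and 0.558.

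**Figure D4:**
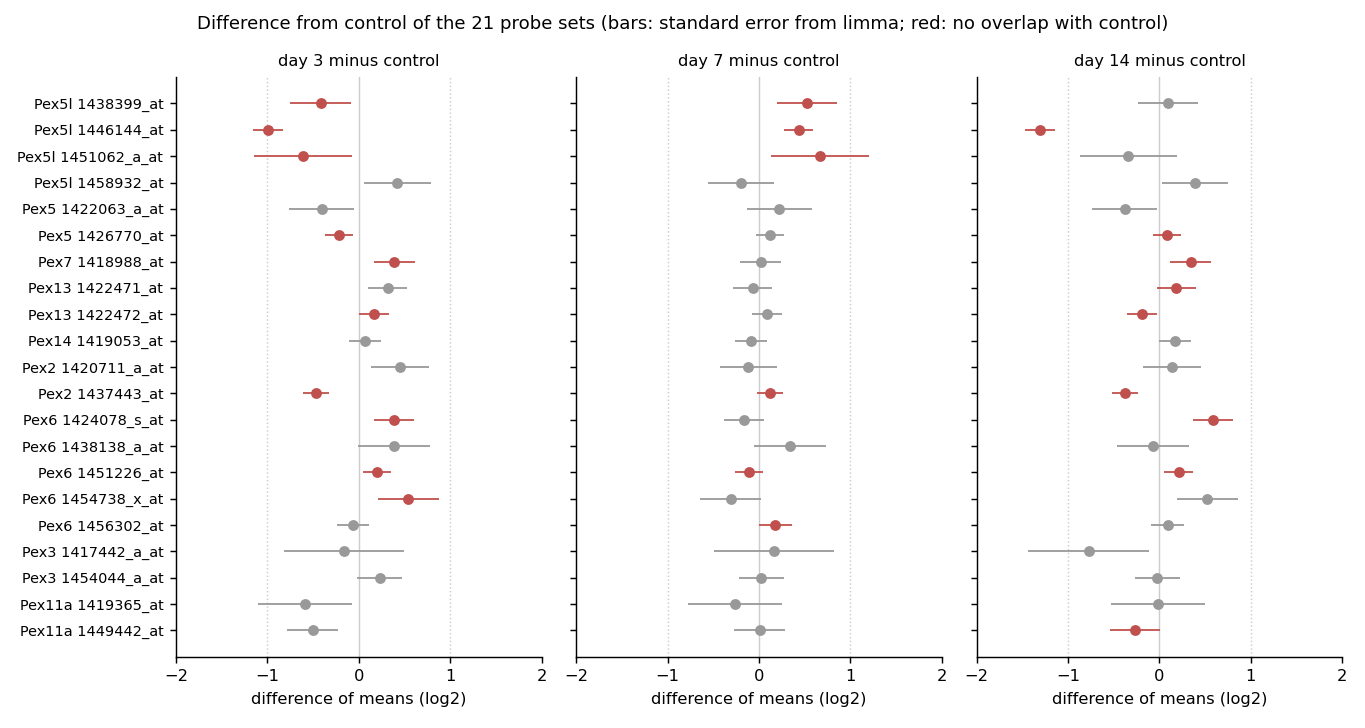
Difference of the mean of 2 hyperoxia arrays from the mean of 2 control arrays (log2, horizontal axis) for the 21 probe sets (rows, by role) at day 3, day 7 and day 14 (panels); bars are the SE from limma, red marks probe sets whose arrays do not overlap control, and dotted lines mark 2-fold. Only *Pex5l* 1446144_at at day 14 (-1.31) passes a dotted line.

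The highest and lowest values of the members were spread unevenly over the arrays, as were those of all probe sets. The array labelled day 3 replicate 1 held the highest value of 6 of the 21 probe sets (28.6%, beside 18.1% of all probe sets) and the lowest of 3 (14.3%, beside 20.1%). Day 7 replicate 2 held the lowest of 8 (38.1%, beside 18% of all). Of the 21, 5 lay below the other 6 arrays on both arrays that stood apart (23.8%, beside 9.59% of all probe sets) and 4 lay above (19%, beside 16%). The 5 low ones belonged to *Pex3* (both probe sets), *Pex5*, *Pex5l* and *Pex6*, and the 4 high ones to *Pex6* (3) and *Pex14*.

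*Pex3* 1417442_a_at and *Pex6* 1454738_x_at lay at opposite ends on these arrays, though *Pex6* 1456302_at lay low there with *Pex3*. The contrast is thus one between probe sets. The sequences before the start sites of both genes are shown side by side. They are the 250 bases before the annotated start from RefSeq, build GRCm38.p6, 5′ to 3′ on the strand of the gene, with capitals marking GC boxes (GGGCGG on either strand). The table held windows for 7 of the 9 genes, and *Pex2* and *Pex5l* were not matched.
Pex3, chr10:13553143-13553392, strand minus: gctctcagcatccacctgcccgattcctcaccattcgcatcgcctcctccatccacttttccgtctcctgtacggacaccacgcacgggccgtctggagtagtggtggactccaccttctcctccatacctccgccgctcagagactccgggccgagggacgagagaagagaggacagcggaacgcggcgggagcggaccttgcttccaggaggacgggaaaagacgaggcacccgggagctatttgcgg
Pex6, chr17:46711226-46711475, strand plus: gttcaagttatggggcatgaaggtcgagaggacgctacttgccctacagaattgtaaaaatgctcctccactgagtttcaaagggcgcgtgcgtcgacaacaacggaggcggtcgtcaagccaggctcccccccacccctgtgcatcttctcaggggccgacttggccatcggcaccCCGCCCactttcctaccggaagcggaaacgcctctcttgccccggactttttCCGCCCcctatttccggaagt

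The window of *Pex6* held 2 GC boxes and that of *Pex3* none, where 32.7% of 32851 windows of this length held at least 1. Neither held CCAAT or the nuclear receptor element AGGTCA on either strand, found in 33.8% and 14% of windows. The bases were 63.2% G and C for *Pex3* and 58.8% for *Pex6*, against a median of 52.4%. A match describes the letters alone.

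Beyond these 9 genes, 69 other genes of the peroxisome, its regulators and the HCN channels were measured by 135 probe sets. None passed an adjusted p of 0.05 in any of the 6 comparisons by limma. Without adjustment, 11 had p under 0.05 and were higher at day 3 than in control and 6 were lower, together 12.6% beside 10.3% of all probe sets. At day 14 it was 6 higher and 8 lower, 10.4% beside 8.27%, and at day 7 none, beside 0.864%. Of the 135, 45 lay above control on both day 14 arrays (33.3%, beside 27.7% of all) and 24 below (17.8%, beside 18.3%). The genes named in the following were taken from the 4 with the smallest p at day 14 in each group, each by its probe set with the smallest p. That choice favours wide differences, so the further probe sets of a gene are given beside it.

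Of 31 probe sets of the fatty acid oxidation genes, 13 lay above control on both day 14 arrays (41.9%, beside 27.7% of all probe sets). Below control lay 2 (6.45%, beside 18.3%), and the median difference was 0.14. *Ech1*, an isomerase of the pathway, had 0.36 and 0.42 on the day 14 arrays, against -0.19 and -0.41 on the control arrays, a difference of 0.69 (SE 0.16, adjusted p = 0.414). *Crat*, which makes acylcarnitines for export, had 0.20 and 0.38 at day 14 and -0.31 and -0.34 in control, 0.61 apart on 1441919_x_at (SE 0.15, adjusted p = 0.445). The other 2 probe sets of *Crat* differed by 0.03 and 0.09. *Ech1* had 1 probe set. On those first given, both day 14 arrays of each gene lay above control. These probe sets were picked by their p at day 14, so this is a description.

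The group of oxidases and redox enzymes had 7 of 16 probe sets above control at day 14 (43.8%, beside 27.7% of all) and none below (beside 18.3%). *Idh1*, which supplies NADPH in cytosol and peroxisome, had 0.71 and 0.28 at day 3 and 0.20 and 0.35 at day 14, against -0.20 and -0.34 in control, with differences of 0.76 and 0.54 (SE 0.20, adjusted p = 0.471 and 0.578), and its other probe set differed by 0.70 and 0.41. *Agxt*, an aminotransferase, *Dao*, the D-amino acid oxidase, and *Cat*, the catalase that breaks down hydrogen peroxide, differed by 0.24 (SE 0.14), 0.22 (SE 0.15) and 0.25 (SE 0.23) at day 14 (adjusted p = 0.668, 0.707 and 0.772), and the second probe set of *Cat* by -0.04. Among matrix proteases and hydrolases, 7 of 15 probe sets lay above control at day 14 (46.7%, beside 27.7% of all) and 2 below (13.3%, beside 18.3%). *Nudt19*, a coenzyme A hydrolase, differed by 0.49 at day 3 and 0.41 at day 14 (SE 0.15, adjusted p = 0.471 and 0.571), and on its other probe set by 0.47 and 0.20. *Nudt7*, of the same family, differed by 0.56 at day 14 on 1431302_a_at (SE 0.24, adjusted p = 0.613) and by 0.02 to 0.47 on 3 others, which overlapped control.

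Membrane transporters lay on both sides of control, 6 of 17 probe sets below it at day 14 (35.3%, beside 18.3% of all) and 5 above (29.4%, beside 27.7%). *Abcd2*, a carrier of very long chain acyl groups into the peroxisome, had -0.77 and -0.69 on the day 14 arrays, against 0.11 and 0.04 in control, a difference of -0.81 on 1456812_at (SE 0.22, adjusted p = 0.462). Its other 3 probe sets differed by -1.31, -1.03 and 0.15, none overlapping control. *Acbd5*, which tethers peroxisomes to the endoplasmic reticulum, differed by -0.72 (SE 0.26, adjusted p = 0.556) and on its other probe set by -0.29. *Pxmp2*, a channel of the peroxisomal membrane, differed by 0.50 (SE 0.19, adjusted p = 0.586). *Slc25a17*, a carrier of cofactors, differed by 0.29 (SE 0.13, adjusted p = 0.626), and by -0.11 on a second probe set that overlapped control.

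Of the 14 probe sets of fission genes, 2 lay below control at day 14 (14.3%, beside 18.3% of all) and 4 above (28.6%, beside 27.7%). *Dnm1l*, the dynamin that divides peroxisomes and mitochondria, had -0.42 and -0.79 at day 14 and 0.07 and 0.21 in control on 1428086_at, a difference of -0.75 (SE 0.17, adjusted p = 0.412). Its other 3 probe sets overlapped control, with differences of -1.05, -0.69 and -0.0040. *Gdap1*, a fission factor of mitochondria and peroxisomes, differed by -0.56 on 1437425_at (SE 0.26, adjusted p = 0.631 in limma). Its other probe sets had day 14 means of -0.03, -0.24 and -0.06, beside control means of -0.05, 0.14 and -0.06, and all of them overlapped control. *Fis1* and *Mff*, the adaptors that bring the dynamin to the membrane, differed by 0.48 (SE 0.28, adjusted p = 0.682) and 0.26 (SE 0.17, adjusted p = 0.703 in limma). The other probe set of *Fis1* had means of 0.15 at day 14 and -0.08 in control, with no overlap. Those of *Mff* had 0.07, 0.05 and 0.01 at day 14, beside 0.01, -0.19 and -0.04 in control. Only 1456582_x_at among these did not overlap control.

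*Ppara*, the nuclear receptor that drives peroxisome proliferation in rodent liver, was at -0.83 or below on both day 3 arrays and had -0.24 and -0.89 at day 14, against 0.54 and 0.24 in control. Its differences were -1.31 and -0.96 (SE 0.23, adjusted p = 0.471 and 0.430), and at day 7 it had 0.34 and 0.40. The other 2 probe sets of *Ppara* also lay below control at both times, by -0.83 and -0.69 at day 3 and -0.80 and -0.26 at day 14. Its coactivator *Ppargc1a* differed by -0.52 at day 3 and -0.80 at day 14 on 1460336_at (SE 0.19, adjusted p = 0.471 and 0.414), and of its other 4 probe sets 2 lay below control at day 14 and 2 overlapped it. The retinoid partners of the receptor, *Rxra* and *Rxrb*, differed by 0.49 on 1425762_a_at (SE 0.24) and 0.46 (SE 0.22) at day 14, and the other 2 probe sets of *Rxra*, at -0.02 and 0.09, overlapped control. Over the 16 probe sets of these regulators 6 lay below control (37.5%) and 3 above (18.8%) on day 3, with the same counts on day 14. Among all probe sets the shares below and above were 17.8% and 24.7% on day 3, then 18.3% and 27.7% on day 14. On day 7, 2 regulator probe sets lay below (12.5%) and 1 above (6.25%), beside 12.3% of all in either direction.

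**Figure D5:**
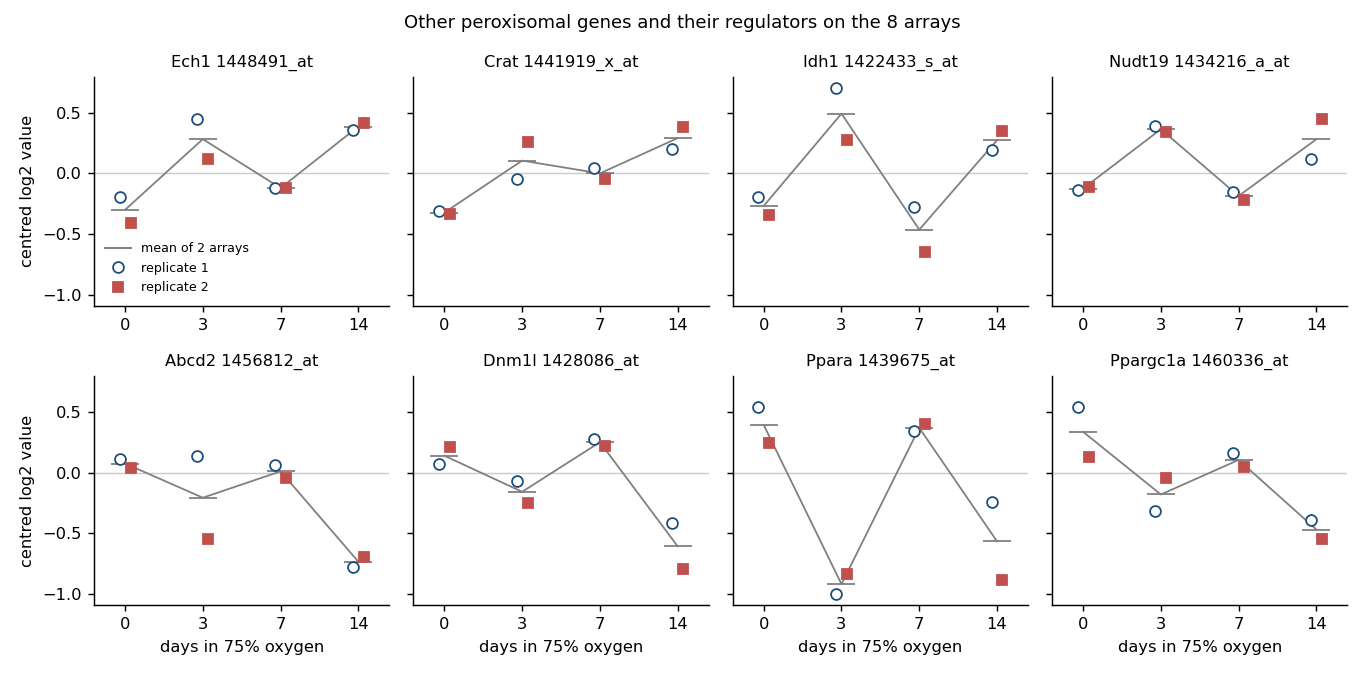
Centred log2 values of 8 other peroxisomal genes and regulators (panels) by days in 75% oxygen, each on its probe set with the smallest p at day 14, with 1 point per array (open circles, replicate 1, and filled squares, replicate 2) and the mean of 2 arrays joined by lines. *Ech1* and *Crat* lie above control at day 14 (*Ech1* 0.36 and 0.42), and *Abcd2*, *Dnm1l*, *Ppara* and *Ppargc1a* lie below it (*Abcd2* -0.77 and -0.69).

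The other peroxins measured on the array, 5 genes on 10 probe sets, had 3 probe sets above control at day 14 (30%, beside 27.7% of all). Below it lay 1 (10%, beside 18.3%), and the median difference was 0.04. *Pex11g*, of the same family as *Pex11a*, lay above control by 0.44 at day 3 and 0.39 at day 14 (SE 0.16, adjusted p = 0.472 and 0.598), and its other 2 probe sets differed by 0.23 and 0.13 at day 14. *Pex16*, which with *Pex3* takes part in membrane assembly, differed by 0.48 and 0.39 at these times (SE 0.19, adjusted p = 0.477 and 0.646), and its second probe set by 0.02 and 0.01. *Pex19*, the carrier that delivers membrane proteins to *Pex3*, differed by -0.28 at day 14 (SE 0.20, adjusted p = 0.712) and by -0.69 and 0.07 on its other probe sets, all 3 overlapping control. *Pex26*, the membrane anchor of the *Pex6* complex, differed by -0.29 (SE 0.30, adjusted p = 0.795), with both arrays below control. As with the 9 genes above, the other peroxins lay on both sides of control.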

How the data were processed

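RNA from 8 retinal samples was hybridised to Affymetrix whole-genome mouse arrays. Values were deposited as log2 expression from RMA, which the submitters' processing notes name (its version is not given in the sources used here) and which subtracts background, quantile-normalizes the arrays and summarises probes, and each probe set was centred on its median over the 8 arrays to within 1e-06. The study's methods describe other software for its own calls, which was not used here. All 8 value columns were mapped to samples by title.

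After removal of 64 control probe sets, 45037 were fitted with no filter and no further scaling. Of these 34945 name 1 gene, 932 several and 9160 none. A model of 4 group means, with 4 residual degrees of freedom, was fitted in R 4.3.3 by lmFit, contrasts.fit and eBayes of limma 3.58.1, which gave 2.71 prior degrees of freedom. Benjamini-Hochberg adjusted p under 0.05 counted as called. Precision is limited by the number of arrays. A 2-fold difference is 1 or more on the log2 scale. The fit was tested on simulated data.

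The members and the gene lists were chosen with earlier results of these data known. Every member probe set is given, and the one with the largest SD over the 8 arrays stands first for a gene. Of each other list, at most 4 genes with the smallest p for day 14 against control were eligible to be named, and of the likeness to *Pex5l* the 5 highest r. Promoter windows came from RefSeq (GRCm38.p6) and were searched in Python 3.11.15 with pandas 2.3.3. Plots used matplotlib 3.10.9.

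The settings varied were a further quantile normalization, array medians subtracted, a replicate block, robust eBayes, the compared groups alone, each array left out in turn, both arrays that stand apart left out, the 2 arrays of conflicting record left out (added after seeing the data), gene means, and probe sets of 1 gene with no x or s suffix. A lone array, after its partner was left out, was taken to have the spread of the remaining times.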

Additional observations from a re-analysis of the deposited data

Results flagged for a closer look

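Some probe sets had both arrays of 1 time above both control arrays and both arrays of another time below both. Between day 7 (above) and day 3 (below), the difference was 1.43 for *Pex5l* 1446144_at, 1.28 for *Pex5l* 1451062_a_at, 0.94 for *Pex5l* 1438399_at and 0.59 for *Pex2* 1437443_at on the log2 scale. These 4 of 21 are 19%, beside 1.15% of all probe sets, and 3 of them belong to *Pex5l*, which was chosen by its difference from the same control arrays, so nothing is read from this share or those below. None of the 4 passed in limma's comparison of day 7 with day 3 (adjusted p = 0.347 to 0.411).

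Between day 7 (above) and day 14 (below), the difference was 1.74 for *Pex5l* 1446144_at and 0.50 for *Pex2* 1437443_at, or 9.52% of the members beside 1.22% of all probe sets. Since day 14 was used to choose the genes, that difference was not tested as a result. *Pex6* 1451226_at lay above control at day 3 and at day 14 and below it at day 7, with differences of 0.31 and 0.32. *Pex5* 1426770_at lay above control at day 14 and below it at day 3, 0.30 apart, and *Pex13* 1422472_at above at day 3 and below at day 14, 0.35 apart. Each of these patterns was found in 1 of the 21 (4.76%), beside 2.48% and 2.7% of all probe sets for those of *Pex6*, 0.702% for that of *Pex5* and 0.531% for that of *Pex13*. The differences between times of *Pex5* and *Pex13*, and of *Pex6* at day 14, rest on the same arrays and were not tested as results.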

How the results depend on the processing

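No member probe set passed an adjusted p of 0.05 in the 3 comparisons without day 14 under any alternative run, the fit with the replicate number as a block included (0 called with the replicate block in each). The replicate numbers did not pair the arrays, since the deviations of same-numbered arrays correlated between times at -0.40 to 0.55. The difference of *Pex5l* 1446144_at was -1.13 to -1.49 at day 14 against control when an array was left out, and -0.29 with the mean of its 4 probe sets in its place. Its lowest adjusted p at day 7 against day 3 was 0.072, without day 3 replicate 2, and the highest 0.638, in the fit of the compared groups alone. Counts of probe sets moved with the arrays used. Leaving out 1 array at a time, the members 2-fold lower at day 14 were 1 to 3 (3 without day 14 replicate 1) and at day 3 were 0 to 3 (3 without day 3 replicate 1). Those above control at day 14 were 5 to 11 (11 without control replicate 1, 8 and 9 without day 14 replicate 1 and 2) and those below 4 to 9 (9 without day 14 replicate 1). At day 3 there were 5 to 12 above (12 without replicate 2 of day 3) and 5 to 9 below (9 without replicate 1), and at day 7 5 to 10 above and 1 to 10 below (10 above without day 7 replicate 2, 10 below without day 7 replicate 1, and 9 above and 7 below without control replicate 2). A single array is more easily on one side of control than a pair. The shares over all probe sets were not counted under these alternatives or those that follow. Nothing about the members is therefore read from how the counts moved. Without both arrays that stand apart, 9 lay above control at day 14 and 12 at day 3, and 1 was 2-fold lower at day 3, as it was with array medians subtracted. Without both day 3 replicate 2 and day 14 replicate 1, over whose time the labels and the study's quality measures conflict (added after seeing the data), 8 lay above and 9 below control at day 14 and 12 above at day 3, and 3 were 2-fold lower at day 14 and 1 at day 3. A further quantile normalization left 2 above at day 7, and without x and s probe sets 3 of 19 lay above at day 3. With gene means, of 9 genes, 0 were 2-fold lower at day 14, 2 lay above and 0 below at day 14, 3 above and 1 below at day 3, and 1 above and 0 below at day 7. Gene means turned the sign of *Pex13* 1422471_at (-0.0022) and *Lonp2* (0.018) at day 14 against control and of *Pex2* 1420711_a_at (0.0090) at day 7 against day 3. Of the other alternatives, 235 counts stayed equal or near to the main count, and 1145 single values were labelled the same. For a member that label meant a move smaller than the spread between arrays, and 51 single values moved by more. A change of sign was looked for in members only where the arrays of the 2 times did not overlap. For the other named genes the label meant the same sign and no pass at an adjusted p of 0.05, and size was not compared. The values have no level, so signal over background could not be assessed.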

Other observations

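*Lonp2*, the protease of the peroxisomal matrix, and *Nudt12*, a peroxisomal NADH hydrolase, were below control at day 14 on the probe set with the smallest p. *Lonp2* 1442258_at had -0.24 and -0.27 on the day 14 arrays, against 0.07 and 0.04 on the control arrays, and 0.49 and 0.25 at day 7 (difference from control at day 14 -0.31, SE 0.16, adjusted p = 0.651 in limma). Its other 3 probe sets differed by 0.14, 0.29 and -0.05 at day 14, so the direction depended on the probe set. *Nudt12* had -0.33 and -0.19 at day 14 and 0.02 and 0.04 in control, a difference of -0.29 (SE 0.13, adjusted p = 0.631), and lay above control at day 3, at 0.09 and 0.27. *Agps* and *Far1*, which act in the first steps of ether lipid synthesis, differed from control by -0.40 (SE 0.25) and -0.44 (SE 0.32) at day 14 with arrays below control, on 1 of the 3 probe sets of *Agps* and 4 of the 5 of *Far1*. Of the 14 probe sets of that list, 5 lay below control (35.7%, beside 18.3% of all probe sets) and 2 above (14.3%, beside 27.7%).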
